A study of Mus musculus with 18 samples.

Results

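Day 4 cells of the HBG3 line, which the labels place at the progenitor motor neuron stage, were compared with day 2 embryoid bodies of the same line that had received no retinoic acid (RA). The arrays were taken by their labels and make up 7 of the 18 arrays of the series, with 3 arrays labelled HBG3_Day4 and 4 labelled HBG3_Day2 without RA. HBG3 is a mouse embryonic stem (ES) cell line, and all 7 arrays come from this line, so they describe a single line. ES cells kept with LIF were dissociated on day 0 and left to form aggregates, the embryoid bodies, in a medium with serum replacement. RA and an agonist of the hedgehog (Hh) pathway were added on day 2. The day 2 group had therefore seen neither agent, and the day 4 group had been exposed to both for 2 days. The labels name no sort of the cells, and the sources used here do not say whether the line carries a reporter. No day 4 aggregates without RA and agonist were among the arrays, so that the effects of RA, of the agonist and of 2 more days of culture cannot be told apart. In RNA of whole aggregates, fewer cells of a type and less RNA per cell cannot be told apart either.

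RA enters cells of the neural tube from the neighbouring somites and acts through nuclear receptors of the RAR and RXR families, which bind response elements near their target genes and give the cells hindbrain and spinal positions along the body axis. Sonic hedgehog, made below the neural tube, acts through Smoothened and the Gli transcription factors and gives the cells ventral positions. Motor neurons arise from the ventral progenitor domain marked by Olig2, which lies above the domain marked by Nkx2-2. Before this, the cells have to leave pluripotency, which is held by Oct4 (Pou5f1), Nanog and Sox2, and pass through a state like that of the epiblast.

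Each value below is the log2 signal of a probe set on the Affymetrix mouse array, and a gene with several probe sets is represented by its brightest one, judged by the mean of the 18 arrays. The background level was set at a log2 signal of 4. A gene was called higher or lower when 1 or more of its probe sets differed by 2-fold or more with an adjusted p below 0.01 in limma, fitted on all arrays. Values for single arrays are given in the order of their replicate numbers, which are 1 to 4 at day 2 and 1 to 3 at day 4. Where leaving out an array ended a call, the highest adjusted p so reached is given with that array. Where arrays of the dimmer group lay under the background level, they were set at that level, and the fold so reached is a minimum (written "at least"). A call said to be lost on the 7 arrays alone is that of the brightest probe set in a fit without the arrays of the other groups. The day 2 arrays fell into pairs. Replicates 1 and 2 correlated at 0.992 across all probe sets, replicates 3 and 4 at 0.991, and arrays of different pairs at 0.967 to 0.977. Signals of the 3′ probe sets of Actb exceeded those of the 5′ probe sets by 1.05 to 1.75 on the log2 scale at day 2 and by 1.66 to 2.08 at day 4. For Gapdh the corresponding excess was 0.86 to 1.02 and 0.91 to 1.41. What part RNA integrity has in the differences below was not tested.

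The labels of both groups were compared with the genes that define the stages. At day 2, Pou5f1 and Nanog gave log2 signals of 11.92 to 12.84 and 11.84 to 12.92, and Fgf5 and Otx2, which mark the epiblast, gave 8.92 to 9.41 and 9.25 to 9.89. At day 4, Olig2 gave 10.996 to 11.29 and Nkx6-1 8.57 to 9.61, both of them marks of ventral neural progenitors. Pax6, listed here with neural progenitors in general, gave 10.17 to 10.93. Olig1, Nkx6-2 and Nes, also genes of progenitors, had day 4 means of 9.34, 7.30 and 8.92, but their differences from day 2 did not pass. Isl1, a factor of motor neurons that have left the cell cycle, already gave 10.48 to 11.20. Other motor neuron factors were weaker, with day 4 means of 6.07 for Lhx3 and 4.52 for Mnx1. Isl2, at 2.52, was under the background level. The cholinergic genes of mature motor neurons were not detected, with Chat at 2.24 to 2.43 and Slc18a3 at 2.23 to 3.51, all under the background level. The day 4 aggregates thus gave signal for genes of progenitors and for genes of young neurons.

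Of 18193 genes measured, 2395 were called. Day 4 was higher for 1105 genes, or 6.07% of all genes, and lower for 1292, or 7.1%. The counts of called genes in the lists below are to be read beside these shares. Only Lrig1 and Srr were called in both directions, on different probe sets. The median log2 fold change over all genes was 0. The brightest probe set carried the call for 2036 genes, and for 2034 of these the arrays of day 2 and day 4 did not overlap. Over all genes, called or not, 27.4% showed no such overlap. Of the called genes, 46.1% were higher at day 4. When only replicates 1 and 2 stood for day 2, calls numbered 884 higher and 757 lower, a share of 53.9% higher. With replicates 3 and 4 in their place they numbered 896 and 1716, a share of 34.3%. A fit on the 7 arrays alone called 509 higher and 558 lower. At 8-fold or more on that probe set, 256 genes were higher and 387 lower. All day 2 arrays were under the background level for 191 of the genes called higher on that probe set, and all day 4 arrays for 339 of those called lower. The standard errors pool the spread over all 18 arrays, so for genes near the lowest values in some groups they and the p-values can be too small. Counted between neighbouring stages, 711 genes (3.91%) were higher and 692 (3.8%) lower at day 3 than at day 2, and 114 (0.627%) were higher and 144 (0.792%) lower at day 4 than at day 3.

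The 15 largest rises by fitted log2 fold change ranged from 7.67 to 9.22. They were those of Nr2f1, an orphan nuclear receptor of the developing nervous system, Hoxb4, Hoxb5, Hoxd3, the neural POU factor Pou3f3, the proneural factor Neurog2, the endothelin receptor Ednrb, Hoxc4, Prdm8, Pou3f2, the non-coding Pantr1, Hoxc5, the neuronal bHLH factor Nhlh2, the Notch target Hes5 and Mir124-2hg, the host transcript of a neuronal microRNA. Nr2f1 gave log2 signals of 2.25, 2.74, 2.35 and 2.43 at day 2 and 11.64, 11.61 and 11.73 at day 4 (log2 fold change 9.22, standard error 0.28, adjusted p = 3.3e-10, at least 203-fold). Ednrb gave 3.30, 3.54, 3.40 and 3.37 and then 11.90, 12.03 and 11.87 (log2 fold change 8.53, standard error 0.18, adjusted p = 1.2e-11, at least 245-fold). Of both genes, every day 2 array was under the background level and every day 4 array was far above it. For Pantr1 and Nhlh2 the day 3 arrays lay at 2.57 to 5.67 and 3.14 to 4.67, and the step from day 3 to day 4 was 6.72 and 6.30.

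The 15 largest falls by fitted log2 fold change ranged from -10.01 to -7.76. They were those of Pou5f1, Trh, the precursor of thyrotropin-releasing hormone, Fgf4, Tdgf1, L1td1, Utf1, Pla2g1b, Vrtn, Nanog, Zscan10, the non-coding Platr10, Dppa4, Lefty1, Nodal and Gdf3. Trh gave 12.42, 12.47, 12.47 and 12 at day 2 and 2.97, 2.63 and 3.14 at day 4 (log2 fold change -9.43, standard error 0.20, adjusted p = 1.2e-11, at least 324-fold). L1td1, a protein derived from a retrotransposon and found in pluripotent cells, gave 12.09 to 12.79 and then 3.45 to 3.997, a difference of -8.87 ± 0.34 (SE). Among rises and falls that start or end under the background level the order is not reliable.

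**Figure D1:**
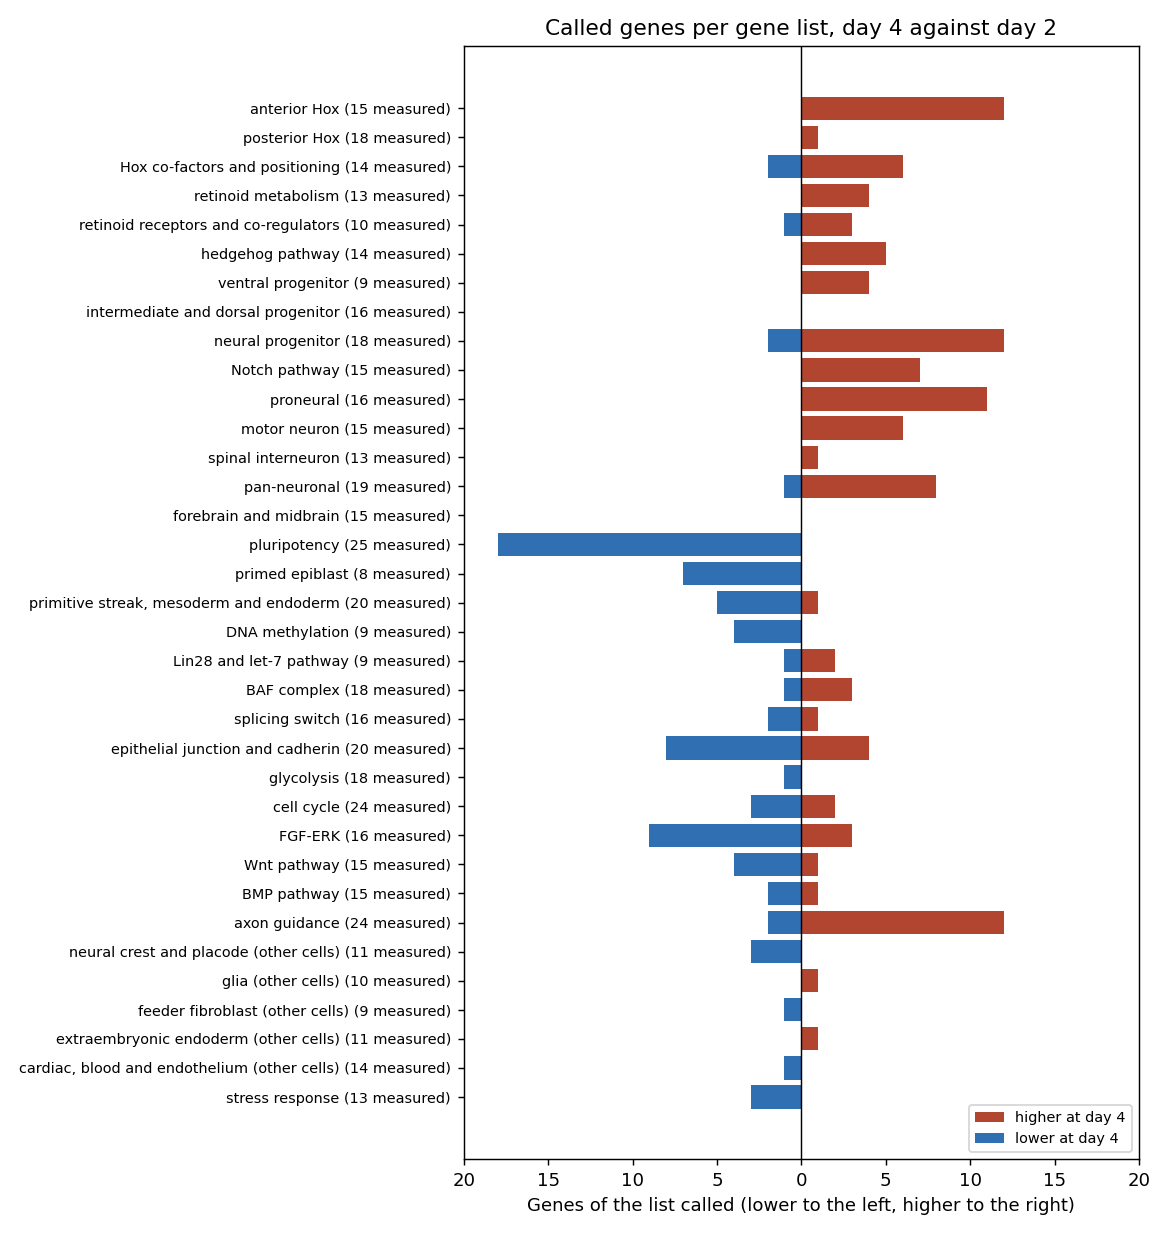
Called genes of each gene list, with the number called higher at day 4 to the right of 0 and the number called lower to the left (limma, adjusted p below 0.01, 2-fold or more). The anterior Hox, proneural and axon guidance lists lie mostly to the right, with 12, 11 and 12 genes called higher, and the pluripotency and FGF-ERK lists mostly to the left, with 18 and 9 called lower.

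**Figure D2:**
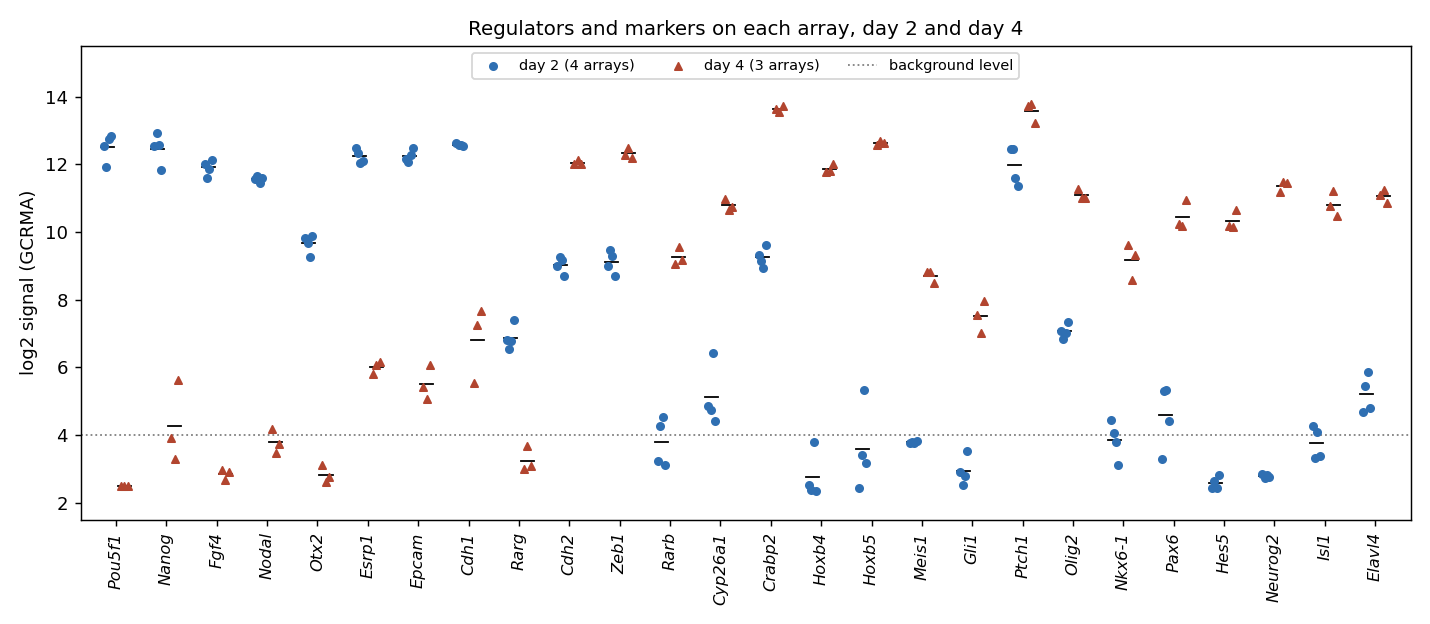
Log2 signal of 26 genes on each array, with day 2 as blue circles (4 arrays), day 4 as red triangles (3 arrays), group means as short lines and a dotted line at the background level of 4. Day 2 lies above day 4 for the genes from Pou5f1 to Rarg and below it for those from Cdh2 to Elavl4, without overlap of the arrays for any gene.

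Of 25 genes of the pluripotency list, 18 were lower at day 4, 7 did not pass and none was higher, with a median log2 fold change of -5.49 against 0 over all genes. A fit on the 7 arrays alone left 15 of the list lower. Pou5f1, the POU factor at the centre of the pluripotency network, gave 12.53, 11.92, 12.75 and 12.84 at day 2 and 2.50, 2.50 and 2.50 at day 4 (log2 fold change -10.01, standard error 0.50, adjusted p = 3.4e-08). The day 4 arrays were all at the low end of the scale, and the fall was at least 364-fold. Nanog gave 12.53, 12.92, 12.56 and 11.84 and then 3.90, 3.30 and 5.64 (log2 fold change -8.18, standard error 0.51, adjusted p = 2.5e-07), a fall of at least 242-fold with 1 of 3 day 4 arrays above the background level. Fgf4, a growth factor that is a target of Oct4 and Sox2, fell from between 11.60 and 12.14 to between 2.68 and 2.96 (-9.06 ± 0.12, adjusted p = 1.1e-13). The chromatin protein Utf1 and Dppa4 fell by at least 137-fold and 113-fold. The Nodal co-receptor Tdgf1 fell from between 12.24 and 12.62 to between 3.01 and 4.54, with 1 of 3 day 4 arrays above the background level. Lefty1 and Gdf3, a Nodal antagonist and a ligand of the same family, were all under the background level at day 4. Zfp42, a marker of naive pluripotency, had day 2 values of 7.82 to 8.98 and fell by at least 21.2-fold.

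The Nanog promoter is shown because Nanog and Pou5f1 both fell and the protein made from Pou5f1 is known to bind there. The window from 250 bases before to 50 bases after a RefSeq start on build GRCm38.p6, chr6:122707239-122707538 on the plus strand, holds the POU motif TTTGCAT and, after 1 other base, the Sox motif ACAATG, which together form the paired site that Oct4 and Sox2 are known to bind. The sequence is taken from RefSeq, and the capitals mark the match with the base between its parts, which begins 75 bases before the start.
Nanog promoter: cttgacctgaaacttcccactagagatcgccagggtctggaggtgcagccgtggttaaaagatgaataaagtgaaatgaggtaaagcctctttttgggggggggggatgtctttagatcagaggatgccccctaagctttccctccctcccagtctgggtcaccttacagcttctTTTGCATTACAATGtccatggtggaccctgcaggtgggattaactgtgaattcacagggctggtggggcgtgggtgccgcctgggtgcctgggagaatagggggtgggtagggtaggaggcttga
Searched on both strands, this pair of motifs was found in 2 of 32851 promoter windows of the same length (0.00609%), and both are windows of Nanog that overlap. A match is a description of the letters and not of binding.

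Sox2, which is shared by pluripotent and neural cells, was counted in the list of neural progenitors. It gave 10.58 to 11.57 at day 2 and 11.61 to 12.14 at day 4 (log2 fold change 0.76, standard error 0.27, adjusted p = 0.094). Of the pluripotency list, Klf5 and Tbx3 missed the threshold with log2 fold changes of -3.13 and -1.90 (limma adjusted p = 0.032 and 0.045). Sall4 gave 13.17 to 13.62 and then 12.89 to 12.95, a difference of -0.52 ± 0.10 that was under 2-fold. Klf4 gave 8.03, 8.19, 4.57 and 4.80 at day 2 and 8.63, 6.67 and 5.67 at day 4. Its day 2 arrays lay in the pairs named above, high in replicates 1 and 2, and the groups overlapped. Nr5a2, counted among the genes lower, was called on a dimmer probe set only, and its brightest one gave a difference of -1.16 ± 0.58.

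Of 8 genes of the primed epiblast, the state that follows naive pluripotency, 7 were lower and none was higher (median log2 fold change -5.32). A fit on the 7 arrays alone left 6 of the list lower. Nodal, the ligand that keeps epiblast cells from neural fate, gave 11.55, 11.66, 11.45 and 11.59 at day 2 and 4.18, 3.48 and 3.73 at day 4 (log2 fold change -7.77, standard error 0.20, adjusted p = 1.0e-10, at least 181-fold). Fgf5 was at 8.92, 9.41, 8.999 and 9.23 and fell to 2.40, 2.39 and 2.40, at least 35.3-fold. Otx2, which epiblast and forebrain share, fell from between 9.25 and 9.89 to between 2.60 and 3.11, at least 50.6-fold. The day 4 arrays lay below all day 2 arrays for each of the 8 genes. Foxd3, with 7.16, 4.97, 7.04 and 6.66 and 3.95, 2.43 and 4.18, missed the threshold (log2 fold change -2.94, standard error 0.78, adjusted p = 0.023).

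The primitive streak, mesoderm and endoderm list had 5 of 20 genes lower, 1 higher and 14 not passed, and those 14 were under the background level on every array of both groups. The streak factors Eomes and Mixl1 were at 6.83 to 8.16 and 6.05 to 6.82 at day 2, and both were under the background level on all day 4 arrays, at least 11.7-fold and 5.6-fold lower. Fst, an inhibitor of activin, fell from between 10.67 and 11.58 to between 3.90 and 4.73 (-6.64 ± 0.50, adjusted p = 1.4e-06). Wnt3, a ligand needed for the streak, was at 4.83, 5.73, 5.64 and 6.19 and then under the background level on all day 4 arrays (at least 3.03-fold lower), and its adjusted p rose to 0.0102 without replicate 2 of day 4. The gene called higher was Cxcr4, a chemokine receptor that the definitive endoderm shares with migrating neural cells, which rose from between 6.69 and 8.01 to between 11.80 and 12.005 (log2 fold change 4.51, standard error 0.30, adjusted p = 4.0e-07). Mesp1, Tbx6, Sox17 and Gata6 stayed under the background level throughout.

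Most genes known as targets of FGF signaling through the ERK kinases were lower at day 4. Of 16 genes of the FGF-ERK list, 9 were lower, 3 higher and 4 not passed, with a median log2 fold change of -2.45. The ETS factor Etv5 gave 11.59, 11.59, 11.25 and 11.25 at day 2 and 4.95, 2.97 and 3.57 at day 4 (log2 fold change -7.59, standard error 0.45, adjusted p = 1.5e-07, at least 138-fold). Etv4 was under the background level on all day 4 arrays and fell by at least 6.92-fold. The feedback inhibitors Spry4 and Dusp6 fell by at least 15.7-fold and by 16.5-fold, and the ligand Fgf15 by at least 17.6-fold. The 3 genes that rose were receptors. Fgfr3 gave 4.63, 4.42, 4.98 and 4.17 and then 8.99, 8.81 and 9.23 (log2 fold change 4.46, standard error 0.44, adjusted p = 1.5e-05, 22-fold), while Fgfr2 rose from between 9.21 and 9.94 to between 11.77 and 11.95. Fgfr4 rose to 3.58 to 5.27 from a group of day 2 arrays all under the background level, with 2 of 3 day 4 arrays above it, but its adjusted p of 0.0093 became 0.056 without replicate 2 of day 4. Fgfr1 differed by -0.94 ± 0.24, under 2-fold. On the 7 arrays alone 6 genes of the list were lower and 2 higher, and the calls of Fgf15 and Fgfr4 were among those lost.

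In the DNA methylation list 4 of 9 genes were lower and 5 did not pass. The enzymes that set new methylation, Dnmt3a and Dnmt3b, and their cofactor Dnmt3l all fell. Dnmt3b gave 13.16, 13.19, 12.89 and 12.38 at day 2 and 8.76, 9.38 and 9.57 at day 4 (log2 fold change -3.67, standard error 0.24, adjusted p = 4.4e-07, 12.8-fold), Dnmt3l lay under the background level on all day 4 arrays (at least 23.1-fold) and Dnmt3a fell from between 13.37 and 13.62 to between 11.46 and 11.73. Gadd45a, a stress and growth arrest gene, was the fourth. The maintenance enzyme Dnmt1 and its partner Uhrf1 differed by 0.07 ± 0.13 and 0.08 ± 0.15. Tet1 and Tet2, which oxidize methylcytosine, gave differences of -1.45 ± 0.37 and 1.34 ± 0.45, of opposite sign, neither of which passed.

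Lin28a, an RNA-binding protein that blocks the maturation of let-7 microRNAs, fell from between 11.99 and 12.41 to between 10.63 and 11.05 (log2 fold change -1.33, standard error 0.20, adjusted p = 4.8e-04). At day 4 it remained far above the background level. In this list Hmga2, a let-7 target, rose from between 10.59 and 11.23 to between 12.51 and 12.55 (log2 fold change 1.54, standard error 0.27, adjusted p = 0.0015), and Arid3a was higher too, from a day 2 group under the background level (at least 2.65-fold). The other 6 of 9 genes did not pass, among them Trim71 with a difference of -0.88 ± 0.14, under 2-fold, and Igf2bp1 with 0.04 ± 0.15.

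Genes for the binding (Crabp1, Crabp2) and breakdown (Cyp26a1, Cyp26b1) of RA were higher at day 4, and its receptors differed in direction. Of 13 genes of retinoid metabolism, 4 were higher and 9 missed the threshold (median log2 fold change 0.03). Cyp26a1, the cytochrome P450 that degrades RA, gave 4.87, 4.74, 6.44 and 4.40 at day 2 and 10.97, 10.66 and 10.75 at day 4 (log2 fold change 5.68, standard error 0.53, adjusted p = 9.3e-06, 51.2-fold). Its relative Cyp26b1 gave 2.29, 2.57, 2.41 and 2.27 and then 9.45, 9.87 and 8.19 (log2 fold change 6.78, standard error 0.55, adjusted p = 2.4e-06, at least 36-fold). The 2 enzymes differed in their timing. Cyp26a1 was already at 11.47, 11.23 and 11.73 on the day 3 arrays, whereas Cyp26b1 was at 2.56, 4.03 and 5.25, close to the background level. Crabp1 and Crabp2, which carry RA within the cell, rose 11-fold and 20.9-fold, with Crabp2 going from between 8.94 and 9.61 to between 13.55 and 13.74. The enzymes that make RA from retinal, Aldh1a1, Aldh1a2 and Aldh1a3, were under the background level on every array of both groups. Dhrs3, which reduces retinal, gave 4.84, 5.11, 7.28 and 6.49 and 7.88, 7.77 and 8.77 and missed the threshold (adjusted p = 0.028).

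Of the receptors and co-regulators, 3 of 10 genes were higher, 1 was lower and 6 did not pass. The 3 RA receptors went different ways. Rarb, itself a target of RA, gave 3.23, 4.27, 4.52 and 3.12 at day 2 and 9.05, 9.56 and 9.16 at day 4 (log2 fold change 5.47, standard error 0.34, adjusted p = 2.4e-07, at least 33.3-fold), where 2 of 4 day 2 arrays lay above the background level. Rarg gave 6.79, 6.53, 6.79 and 7.39 and then 2.99, 3.67 and 3.08 (log2 fold change -3.63, standard error 0.29, adjusted p = 2.4e-06), at least 7.34-fold lower. Rara stayed at 3.44 to 3.83 and 3.44 to 3.52, under the background level in both groups. The partner Rxra rose from between 7.28 and 7.83 to between 8.85 and 8.95, a call lost on the 7 arrays alone, and Rxrb differed by -0.13 ± 0.22. Nrip1, a corepressor whose gene responds to RA, rose by 2.36 ± 0.28 on the log2 scale, or 5.12-fold (adjusted p = 8.4e-05).

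The promoters of Rarb and Cyp26a1 are shown because both genes rose and both windows hold a direct repeat of the core motif GTTCA with 6 other bases between its copies. With the base before each core motif this is the DR5 element known to bind RAR and RXR. The capitals mark the repeat. The Rarb window lies at chr14:16575427-16575726 on the minus strand, with the repeat 52 bases before the start, and the Cyp26a1 window at chr19:37697558-37697857 on the plus strand, with the repeat in the opposite orientation 32 bases before the start, both from RefSeq on build GRCm38.p6.
Rarb promoter: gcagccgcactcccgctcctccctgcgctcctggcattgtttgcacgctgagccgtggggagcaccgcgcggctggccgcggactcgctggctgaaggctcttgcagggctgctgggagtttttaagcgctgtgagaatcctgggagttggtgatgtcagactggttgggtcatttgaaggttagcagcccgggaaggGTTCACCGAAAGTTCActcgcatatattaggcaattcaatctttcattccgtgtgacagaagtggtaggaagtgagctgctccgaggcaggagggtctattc
Cyp26a1 promoter: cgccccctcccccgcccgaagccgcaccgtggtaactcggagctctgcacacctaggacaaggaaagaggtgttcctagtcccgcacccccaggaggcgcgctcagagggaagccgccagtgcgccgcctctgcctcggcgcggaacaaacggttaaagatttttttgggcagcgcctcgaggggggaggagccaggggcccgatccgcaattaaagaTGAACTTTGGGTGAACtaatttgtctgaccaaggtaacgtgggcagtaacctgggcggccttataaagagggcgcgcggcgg
Of all 32851 promoter windows, 25 hold such a repeat (0.0761%). Of the 14452 genes measured that have a window, 9 hold it (0.0623%), among them 3 of the 855 called higher (0.351%) and 1 of the 1016 called lower (0.0984%). Repeats with 3 other bases between the core motifs were found in 74 windows (0.225%) and the Gli motif TGGGTGGTC in 83 (0.253%). Neither was recorded in a window of a gene in the lists, but list genes on 1 chromosome were left out of this record. Both strands were searched for each motif, and none of the 3 windows printed holds a second of these motifs.

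Hox genes give cells their position along the body axis, with low paralog numbers in the hindbrain and higher ones further back. Of 15 anterior Hox genes measured, of paralog groups 1 to 6, 12 were higher at day 4, 3 did not pass and none was lower, and the median log2 fold change was 7.19. Hoxb4 gave 2.51, 2.37, 3.80 and 2.33 at day 2 and 11.78, 11.81 and 12 at day 4 (log2 fold change 9.11, standard error 0.30, adjusted p = 6.7e-10, at least 233-fold). Hoxb5 gave 2.44, 3.41, 5.32 and 3.17 and then 12.58, 12.70 and 12.63 (log2 fold change 9.05, standard error 0.49, adjusted p = 7.1e-08, at least 317-fold). Its replicate 3 at day 2 was the only day 2 array above the background level, and the same array was also the highest of the day 2 group for Hoxb2, Hoxb3, Hoxa3 and Hoxb4. Hoxd3, Hoxc4, Hoxc5 and Hoxb6 rose by at least 159-fold, 332-fold, 66.8-fold and 74.4-fold. The remaining 6 called members, Hoxa2, Hoxa3, Hoxa4, Hoxa5, Hoxb2 and Hoxb3, had log2 fold changes of 6.14 to 7.32. The genes that did not pass were Hoxb1, Hoxc6 and Hoxd1, the last 2 under the background level on all arrays.

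Of 18 posterior Hox genes, of groups 7 to 13, only Hoxd8 was called, as higher, beside 6.07% of all genes. Of the 18, 14 were under the background level on every array of both groups (median log2 fold change of the list 0.00). Hoxd8 gave 3.68, 3.37, 2.39 and 2.41 at day 2 and 6.91, 7.16 and 6.52 at day 4 (log2 fold change 3.90, standard error 0.74, adjusted p = 0.0029, at least 7.27-fold). Its adjusted p rose to 0.016 without replicate 2 of day 4, and with day 2 replicates 1 and 2 alone no posterior gene was called. Hoxc8 gave 5.90, 5.34, 2.44 and 2.51 and 7.57, 6.19 and 4.24, where replicates 1 and 2 of day 2 overlapped with day 4 and the difference did not pass (log2 fold change 1.95, standard error 0.99, adjusted p = 0.27). Hoxb9 and Hoxc9 were at 2.61 to 3.17 and 2.23 to 2.36 at day 4, under the background level. Calls thus lay in groups 2 to 6, and of the groups behind them in group 8 alone.

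**Figure D3:**
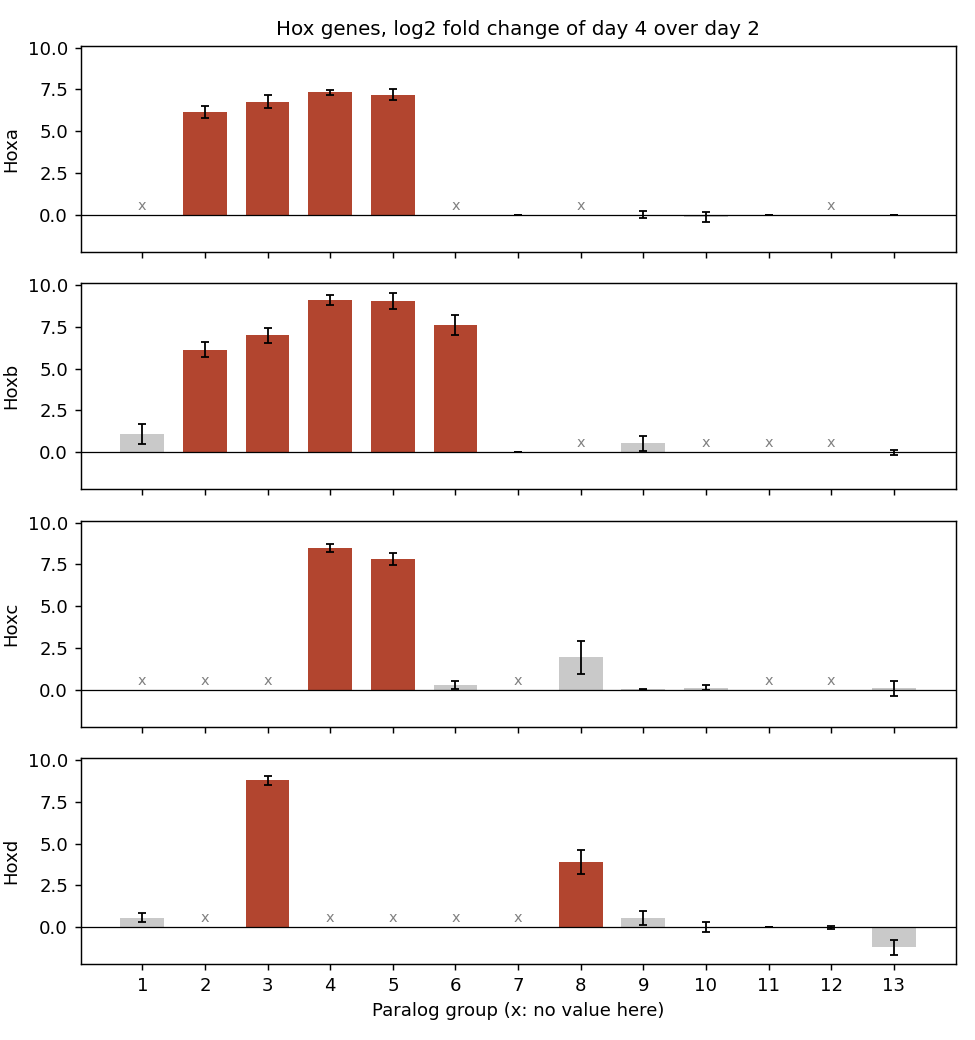
Log2 fold change of day 4 over day 2 for the Hox genes of each cluster by paralog group (bars, error bars are limma's standard errors), in red where called and in gray where not, with x where a gene has no value here. Calls lie in groups 2 to 6, where Hoxc6 alone of the measured genes is not called, with log2 fold changes of 6.14 to 9.11, and from group 7 on only Hoxd8 is called.

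Several co-factors that bind DNA together with Hox proteins, Meis1, Meis2, Meis3, Pknox2 and Pbx2, rose as well. In the list of co-factors and positioning genes, 6 of 14 were higher, 2 lower and 6 not passed. Tshz1, a zinc finger factor of the trunk, gave 5.86, 5.58, 4.65 and 4.06 at day 2 and 12.27, 12.14 and 12.46 at day 4 (log2 fold change 7.25, standard error 0.59, adjusted p = 2.8e-06, 152-fold). Meis1 and Meis2 rose by at least 26.2-fold and by 24.3-fold, and Pknox2 by 12.9-fold. Meis3 rose at least 5.91-fold and Pbx2 from between 10.26 and 10.81 to between 11.78 and 11.96. Gbx2, a gene of epiblast and anterior hindbrain, fell from 8.32, 8.64, 8.68 and 8.76 at day 2 to 3.91, 5.59 and 6.43 at day 4 (log2 fold change -3.29, standard error 0.66, adjusted p = 0.0041), and Cdx2, a caudal factor, from 3.51, 4.998, 4.49 and 5.71 at day 2 to 2.43, 2.29 and 2.29 at day 4 (log2 fold change -2.34, standard error 0.53, adjusted p = 0.0097, at least 1.6-fold, with 3 of 4 day 2 arrays above the background level). Their adjusted p rose to 0.022 without replicate 1 of day 4 and to 0.038 without replicate 2. The 7 arrays alone left 4 genes of the list higher and none lower, without Meis3, Pknox2, Gbx2 and Cdx2. With day 2 replicates 1 and 2 alone none was lower, and with replicates 3 and 4 alone 1 was.

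Gli1, Hhip and Ptch1, which respond to hedgehog signaling, were higher at day 4, and the genes that carry the signal were not called. In this list 5 of 14 genes were higher, 9 did not pass and none was lower (median log2 fold change 1.14). Gli1, the transcription factor whose own gene is a direct readout of the pathway, gave 2.91, 2.52, 2.78 and 3.53 at day 2 and 7.56, 7.02 and 7.95 at day 4 (log2 fold change 4.57, standard error 0.47, adjusted p = 2.1e-05, at least 11.4-fold). Hhip and Ptch1, which bind the ligand and are induced by it, gave rises of 5.61-fold and 3.06-fold. Ptch1 was at 12.47, 12.45, 11.61 and 11.37 at day 2, high in replicates 1 and 2, and at 13.73, 13.80 and 13.23 at day 4 (log2 fold change 1.61, standard error 0.33, adjusted p = 0.0046). The groups did not overlap, but the adjusted p rose to 0.026 without replicate 2 of day 4. Gas1, a co-receptor, rose from between 8.17 and 9.38 to between 10.64 and 11.08 (2.12 ± 0.49), with an adjusted p just under the threshold that became 0.037 without replicate 3 of day 4. The ligand Shh, which is made by floor plate and notochord, gave 2.45, 2.45, 2.39 and 2.45 at day 2 and 3.78, 7.26 and 6.88 at day 4 (log2 fold change 3.54, standard error 0.61, adjusted p = 0.0015). Shh was above the background level on 2 of 3 day 4 arrays, and the rise was at least 3.93-fold. Its day 3 arrays were all under that level, and its call was lost with either pair of day 2 arrays alone. Smo, Sufu, Gli2 and Gli3, which carry the signal, differed by 1.23 ± 0.60, 0.48 ± 0.18, -0.19 ± 0.46 and -0.15 ± 0.15 and did not pass. Calls of Shh, Ptch1 and Gas1 were lost on the 7 arrays alone, which left 2 genes of the list higher, and either pair of day 2 arrays alone left 3.

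Of 9 genes of ventral progenitors, 4 were higher and 5 did not pass, and all 9 differences were above 0 (median 2.45). Olig2, the bHLH factor of the motor neuron progenitor domain, gave 7.06, 6.83, 7.03 and 7.34 at day 2 and 11.29, 11.01 and 10.996 at day 4 (log2 fold change 4.03, standard error 0.47, adjusted p = 6.2e-05, 16.3-fold). It was well above the background level at day 2. Nkx6-1, which acts beside it, gave 4.44, 4.05, 3.78 and 3.12 and then 9.61, 8.57 and 9.32 (log2 fold change 5.32, standard error 0.50, adjusted p = 9.1e-06, at least 33-fold). Nkx2-2 and Nkx2-9, which mark the domain below, were under the background level on all day 2 arrays and rose to 6.55, 7.98 and 5.33 and 7.40, 6.31 and 7.74 at day 4, at least 6.15-fold and 8.88-fold. The call of Nkx2-2 was lost on the 7 arrays alone. At day 4 the genes of both neighbouring ventral domains were thus above the background level on all arrays. Foxa2, a floor plate factor, was at 3.44 to 4.05 and 4.25 to 6.13 and did not pass (adjusted p = 0.19), nor did Olig1, Nkx6-2, Foxa1 and Foxn4.

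No gene of the 16 of the intermediate and dorsal progenitor list was called, and 12 of them lay under the background level on every array of both groups. Pax7, Msx1, Gsx1, Lmx1a, Atoh1, Wnt1 and Wnt3a, which mark the dorsal neural tube, were among these 12. The largest differences were those of Irx5 (2.29 ± 0.86) and Irx3 (1.51 ± 0.47), which mark intermediate positions, and their adjusted p were 0.11 and 0.051. Of 15 genes of forebrain and midbrain likewise none was called and 14 were under the background level throughout. En2, of the border of midbrain and hindbrain, was the exception, with 3.23, 3.63, 5.23 and 4.89 at day 2 and 2.73, 2.51 and 2.50 at day 4 (adjusted p = 0.051). A gene under the background level was not detectable on these arrays, which does not show that it is absent from the cells.

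Of 18 genes of neural progenitors, 12 were higher, 2 lower and 4 not passed, with a median log2 fold change of 1.78. Pou3f3 gave 3.14, 3.03, 3.17 and 4.33 at day 2 and 12.14, 12.22 and 11.91 at day 4 (log2 fold change 8.67, standard error 0.32, adjusted p = 2.0e-09), and Pou3f2 gave 4.42, 3.99, 4.02 and 4.60 and then 12.52, 12.74 and 11.94 (log2 fold change 8.14, standard error 0.31, adjusted p = 3.1e-09). Both are POU factors of neural progenitors and young neurons, and their groups lay more than 7 log2 units apart. Sox21 rose by at least 74.1-fold. Pax6, which sets progenitor domains, gave 3.30, 5.31, 5.34 and 4.40 and then 10.25, 10.17 and 10.93 (log2 fold change 5.87, standard error 0.91, adjusted p = 6.7e-04, at least 51.7-fold), and at day 3 it stood at 11.35, 11.40 and 11.59. Dach1 rose 38.9-fold. Sox1, the earliest mark of neural plate cells, was already at 9.20 to 10.22 at day 2 and rose to 11.29 to 11.51 (log2 fold change 1.65, standard error 0.24, adjusted p = 3.5e-04). Zic2 and Pou3f1, which the epiblast shares with the anterior neural plate, were the genes that fell, Zic2 from between 10.57 and 11.37 to between 6.19 and 7.07 (log2 fold change -4.40, standard error 0.36, adjusted p = 2.9e-06) and Pou3f1 from between 11.10 and 12.10 to between 6.81 and 8.74. The filament gene Nes missed the threshold (1.48 ± 0.62), and Sox11 was called on dimmer probe sets only. Without the other groups in the fit, on the 7 arrays alone, 9 genes of the list were higher and 1 lower. Sox1 and Pou3f1 were among those that lost their calls.

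Notch signaling keeps part of the progenitors undifferentiated while their neighbours, which make the ligands, become neurons. Of 15 genes of the pathway, 7 were higher and 8 did not pass. The ligands Dll1 and Dll3 both rose. Dll1 gave 5.88, 5.41, 5.38 and 6.23 at day 2 and 8.43, 8.78 and 9.61 at day 4, a 9.27-fold rise, and Dll3 gave 5.11, 4.75, 4.54 and 4.42 and then 7.44, 7.37 and 8.19, a 7.79-fold rise. No array of day 4 lay within the range of day 2 for either. The receptor Notch1 rose from between 7.97 and 8.72 to between 11.05 and 11.43 (log2 fold change 2.85, standard error 0.23, adjusted p = 2.5e-06), whereas Notch2 and Notch3 differed by 0.34 ± 0.19 and -0.63 ± 0.22. Lfng and Mfng, which add sugars to the receptor, rose 20.7-fold and 8.8-fold. The target Hes5 gave 2.44, 2.65, 2.44 and 2.82 and then 10.17, 10.14 and 10.64 (log2 fold change 7.73, standard error 0.35, adjusted p = 1.3e-08, at least 79.7-fold), and Hey1 was called higher too. The target Hes1, with 4.71, 4.33, 6.08 and 5.998 at day 2 and 4.71, 4.71 and 6.43 at day 4, overlapped between the groups (0.01 ± 0.61). The ligands Jag1 and Jag2 gave -0.98 ± 0.40 and -0.67 ± 0.44.

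Of 16 proneural and early neuronal factors, 11 were higher and 5 were not called, with a median log2 fold change over the list of 4.61. A fit on the 7 arrays alone left 9 of the list higher. Neurog2, a bHLH factor that drives progenitors out of the cycle and acts with Olig2 in motor neuron progenitors, gave 2.84, 2.73, 2.83 and 2.74 at day 2 and 11.17, 11.47 and 11.44 at day 4 (log2 fold change 8.58, standard error 1.01, adjusted p = 7.2e-05, at least 164-fold). Neurog1 rose by at least 55.1-fold. Factors that act after them in neurons were higher as well. Nhlh2 gave 2.25, 2.97, 2.25 and 2.41 and then 10.38, 10.55 and 9.80 (log2 fold change 7.77, standard error 0.33, adjusted p = 6.8e-09, at least 75.7-fold), Neurod4 rose 107-fold, Ebf3 at least 41.3-fold and the zinc finger factor Myt1 at least 66.3-fold, from day 2 values of 6.52, 6.10, 4.25 and 3.66 that were higher in replicates 1 and 2, a call lost on the 7 arrays alone. Neurod2, Neurod6 and Neurog3 were under the background level on every array.

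Of 15 motor neuron genes, 6 were higher, 9 were not called, and the median log2 fold change over the list was 0.44. The LIM factors that specify the cells rose. Isl1 gave 4.27, 3.31, 4.09 and 3.39 at day 2 and 10.76, 11.20 and 10.48 at day 4 (log2 fold change 7.05, standard error 0.36, adjusted p = 4.1e-08, at least 106-fold), and its day 3 arrays were at 2.56, 3.37 and 2.44. Lhx4 gave 2.82, 4.11, 2.82 and 2.82 and then 10.01, 10.29 and 8.78 (log2 fold change 6.55, standard error 0.51, adjusted p = 1.9e-06), and Lhx3 rose by at least 4.18-fold, to 5.63 to 6.62. Mnx1, the homeobox gene also called Hb9, gave 2.54, 2.54, 2.37 and 2.26 and then 3.56, 5.53 and 4.48 (log2 fold change 2.09, standard error 0.47, adjusted p = 0.0093). It was above the background level on 2 of 3 day 4 arrays, the rise was at least 1.44-fold, and its adjusted p rose to 0.053 without replicate 2 of day 4. Its call was lost on the 7 arrays alone as well. Ret, a receptor of neurotrophic factors, rose from between 3.68 and 4.27 to between 8.19 and 10.68, with day 3 at 7.73 to 9.63. Onecut2 was called on a dimmer probe set only. Isl2, Chat, Slc18a3 and Slc5a7, which belong to later motor neurons, were under the background level in both groups.

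Genes of neurons in general were mixed, with 8 of 19 higher, 1 lower and 10 not passed (median log2 fold change 1.45). Elavl4, an RNA-binding protein of young neurons, gave 4.69, 5.46, 5.85 and 4.80 at day 2 and 11.09, 11.23 and 10.87 at day 4 (log2 fold change 5.86, standard error 0.33, adjusted p = 1.1e-07, 58.1-fold). The microtubule protein Dcx rose from between 4.91 and 4.96 to between 8.82 and 9.28 (log2 fold change 4.06, standard error 0.19, adjusted p = 2.3e-08), Gap43, of growth cones, 15.2-fold, Elavl3 7.82-fold and Dpysl3 7.4-fold. The heavy neurofilament gene Nefh fell, from 7.87, 7.27, 7.58 and 7.99 at day 2 to 2.92, 3.63 and 3.55 at day 4 (log2 fold change -4.31, standard error 0.43, adjusted p = 1.9e-05, at least 12.8-fold). Several genes known for neurons gave high values before any RA. Nefl was at 9.45 to 10.73, Ina at 10.97 to 11.16 and Stmn2 at 10.08 to 10.78 at day 2, and none of these was higher at day 4 (differences of 0.42 ± 0.37, 0.06 ± 0.26 and -1.25 ± 0.45). Tubb3, which encodes the tubulin used as a neuronal mark, was at 7.89, 6.79, 8.47 and 9.17 and 9.38, 9.57 and 9.64, and the difference did not pass (adjusted p = 0.11). Mapt and Syt1 were under the background level on all 7 arrays. A fit on these arrays alone left 5 genes of the list higher, with Elavl3 among those lost.

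Of 13 genes of spinal interneurons, only Lhx1, which motor neurons of the lateral column share, was called, as higher, beside 6.07% of all genes. It gave 3.92, 3.98, 4.78 and 5.09 at day 2 and 7.04, 8.06 and 6.92 at day 4 (log2 fold change 2.90, standard error 0.55, adjusted p = 0.0029), with an adjusted p of 0.02 without replicate 2 of day 4. No gene of the list was called on the 7 arrays alone or with day 2 replicates 3 and 4 alone. Of the 12 that did not pass, 10 were under the background level throughout, among them En1, Evx1, Sim1, Tlx3 and Sox14.

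Several epithelial genes fell while the cadherin of the neural tube and the Zeb factors rose. In this list of junction and cadherin genes 8 of 20 genes were lower, 4 higher and 8 not passed (median log2 fold change -0.62). Cdh1, the cadherin of pluripotent and epithelial cells, gave 12.64, 12.56, 12.57 and 12.53 at day 2 and 5.54, 7.25 and 7.67 at day 4 (log2 fold change -5.75, standard error 0.78, adjusted p = 2.2e-04, 53.9-fold). Epcam gave 12.15, 12.06, 12.28 and 12.47 and then 5.42, 5.05 and 6.07 (log2 fold change -6.73, standard error 0.21, adjusted p = 4.3e-10, 106-fold), and the claudins Cldn6 and Cldn7 of the tight junction fell 55-fold and at least 118-fold. The epithelial transcription factor Grhl2 and the polarity protein Crb3 fell 35.2-fold and at least 16.7-fold. Among the genes called higher, Cdh2, the cadherin of the neural tube, went from 9.01, 9.25, 9.18 and 8.69 at day 2 to 12.01, 12.13 and 12.01 at day 4 (log2 fold change 3.02, standard error 0.40, adjusted p = 1.9e-04, 8.12-fold), and Zeb1, a repressor of Cdh1, from 8.99, 9.47, 9.28 and 8.70 at day 2 to 12.28, 12.49 and 12.20 at day 4 (log2 fold change 3.21, standard error 0.29, adjusted p = 5.9e-06). Zeb2 and Cdh6 were higher as well, both with an adjusted p over the threshold without replicate 2 of day 4 (0.024 and 0.02), and that of Cdh6 also on the 7 arrays alone. Snai1 was under the background level on all arrays and Snai2 differed by -0.48 ± 0.72. Tjp1, of the junctions that neural tube cells keep, differed by -0.16 ± 0.18. Among the epithelial genes not called were Krt8 and Dsp. Krt8 fell without passing (-3.84, limma adjusted p = 0.054), and so did its dimmer probe sets (-4.39 and -4.01, limma adjusted p = 0.032 and 0.031). Krt18 was called lower (-4.17, limma adjusted p = 0.0026). Dsp went the other way without passing (1.18, limma adjusted p = 0.16).

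Of 16 regulators of alternative splicing, 1 was higher and 2 were lower, beside 6.07% and 7.1% of all genes. Esrp1, which sets epithelial splice forms, gave 12.49, 12.35, 12.03 and 12.09 at day 2 and 5.81, 6.06 and 6.17 at day 4 (log2 fold change -6.22, standard error 0.22, adjusted p = 1.3e-09, 74.8-fold), whereas its relative Esrp2 gave 0.43 ± 0.17. A dimmer probe set of Esrp2 went the other way without passing (-1.66, limma adjusted p = 0.015). Its means of 3.91 at day 2 and 2.26 at day 4 were under the background level. Srrm4, which sets neuronal forms, rose from 6.78, 6.02, 6.65 and 6.89 at day 2 to 10.38, 10.66 and 10.50 at day 4 (log2 fold change 3.93, standard error 0.38, adjusted p = 1.2e-05, 15.2-fold). Celf4 fell by 2.46-fold. Ptbp1 and Ptbp2, whose exchange marks neurons, differed by -0.77 ± 0.34 and 0.83 ± 0.17, the latter with an adjusted p of 0.0047 but under 2-fold, so that neither was called.

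Of 24 genes of axon guidance, 12 were higher, 2 lower and 10 not passed (median log2 fold change 1.21). Plxna2, a semaphorin receptor, gave 4.67, 4.30, 4.86 and 5.34 at day 2 and 9.78, 9.34 and 10.40 at day 4 (log2 fold change 5.04, standard error 0.39, adjusted p = 1.7e-06, 33-fold). Ntn1, the netrin made by the ventral neural tube, gave 2.39, 3.19, 3.07 and 3.26 and then 7.01, 7.28 and 9.68 (log2 fold change 5.01, standard error 0.87, adjusted p = 0.0015, at least 15.9-fold), with replicate 3 the highest. Its call was lost with either pair of day 2 arrays alone. The netrin receptor Unc5a rose 24-fold, the semaphorin receptors Nrp2 9.96-fold and Nrp1 at least 6.4-fold, and the repellent Slit2 9.27-fold. For Nrp1 the adjusted p was 0.02 without replicate 2 of day 4. Sema6a and Cxcl12, the ligand of Cxcr4, were the genes that fell, by 9.23-fold and 8.43-fold. The Slit receptor Robo1 differed by 0.23 ± 0.27, and Robo2 and Robo3 were under the background level on all 7 arrays. The number of genes higher was 7 in a fit on those arrays, where Nrp2 and Ntn1 lost their calls, and 8 with either pair of day 2 arrays alone.

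In the Wnt pathway 4 of 15 genes were lower and 1 was higher (median log2 fold change -0.28). Lef1, a transcription factor of the pathway, gave 10.80, 10.96, 11.18 and 10.24 at day 2 and 3.60, 4.65 and 5.95 at day 4 (log2 fold change -6.06, standard error 0.996, adjusted p = 0.001, at least 60.8-fold). The ligand Wnt8a fell to the lowest values of the scale (at least 5.65-fold), the receptor Fzd5 fell at least 7.82-fold, and Tcf7l1 was called on a dimmer probe set. The antagonist Sfrp1 rose 2.23-fold. Axin2, a general target, differed by -0.48 ± 0.41. The genes lower numbered 2 on the 7 arrays alone, where Fzd5 lost its call, and 2 with day 2 replicates 1 and 2 alone, and with either pair of day 2 arrays alone none was higher. Of 15 genes of the BMP pathway, 1 was higher and 2 were lower, beside 6.07% and 7.1% of all genes. The target Id1 gave 3.05, 3.11, 3.55 and 3.46 and then 6.04, 7.06 and 6.68 (log2 fold change 3.30, standard error 0.35, adjusted p = 3.1e-05, at least 6.04-fold), while the inhibitors Bambi and Smad7 were lower, Bambi by at least 7.12-fold and Smad7 on a dimmer probe set only. The ligands Bmp2 and Bmp4 were under the background level on all 7 arrays, and in a fit on these alone no gene of the list was lower. With either pair of day 2 arrays alone 1 was.

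Of 18 subunits of the BAF chromatin remodeling complex, some of which neurons exchange, 3 were higher and 1 lower, beside 6.07% and 7.1% of all genes. On the 7 arrays alone none of the 18 was called. Smarcc2 rose from 4.73, 5.90, 6.28 and 7.06 at day 2 to 8.14, 9.03 and 8.29 at day 4 (log2 fold change 2.49, standard error 0.42, adjusted p = 0.0012), Smarcd3 from 3.62, 2.67, 3.89 and 4.21 to 5.31, 5.20 and 6.02, with 1 of 4 day 2 arrays above the background level, and Ss18l1 3.2-fold. For Smarcd3 the adjusted p was 0.014 without replicate 3 of day 4. Smarcd2 was lower on a dimmer probe set only. The neuronal subunits Actl6b and Dpf1 were under the background level on all arrays, and Smarca4, the enzyme, differed by -0.14 ± 0.40.

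In the cell cycle list 2 of 24 genes were higher and 3 lower, beside 6.07% and 7.1% of all genes (median log2 fold change -0.09). Ccnd2, a G1 cyclin, gave 8.07, 8.12, 8.52 and 9.22 at day 2 and 13.25, 13.25 and 13.49 at day 4 (log2 fold change 4.84, standard error 0.56, adjusted p = 6.3e-05, 28.7-fold), and all 7 of its probe sets were called. Cdkn2c, an inhibitor of G1 kinases, rose at least 3.14-fold. Ccne1 fell 2.59-fold, with an adjusted p of 0.024 without replicate 2 of day 4, and Ccnd1 and Cdkn1a were lower on dimmer probe sets. The calls of Cdkn2c and Ccne1 were lost on the 7 arrays alone. The proliferation genes Mki67, Top2a and Pcna differed by 0.48 ± 0.31, 0.11 ± 0.11 and -0.05 ± 0.08. Of 18 genes of glycolysis only Ldhb was called, from between 12.48 and 12.72 at day 2 to between 10.81 and 11.45 at day 4 (log2 fold change -1.53, standard error 0.24, adjusted p = 6.6e-04), and Ldha differed by -0.02 ± 0.34.

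Markers of cells that the aggregates could hold beside neural cells were followed on each array. Over all genes, 6.07% were higher and 7.1% lower. Of 11 genes of neural crest and placode, 3 were lower and none was higher. Tfap2c gave 10.95, 9.28, 8.31 and 9.07 at day 2 and 5.04, 4.76 and 4.77 at day 4, the receptor Erbb3 fell at least 19.2-fold and Ets1 4.43-fold, and the defining Sox10, Tfap2a and Tfap2b were under the background level on all 7 arrays. The log2 of the summed signals of this list was 9.94 to 11.31 at day 2 and 7.09 to 7.47 at day 4. Tfap2c, which is also known from pluripotent and germ cells, lost its call on the 7 arrays alone. Of 10 glial genes, Slc1a2 alone was called, on a dimmer probe set, and Gfap, Mog, Mag, Cspg4 and S100b were under the background level throughout (log2 sums of 9.65 to 10.16 and 10.36 to 10.51). Of 9 genes of feeder fibroblasts only Thy1 was called, with 5.65, 6.57, 7.10 and 6.74 and then 2.48, 2.75 and 2.58 (at least 5.72-fold lower). The log2 sums were 7.46 to 9.12 and 7.14 to 7.59, Acta2 was high on replicates 3 and 4 of day 2 and on replicate 3 of day 4, and Col3a1, Lum and Postn were under the background level on all 7 arrays.

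Of 11 genes of extraembryonic endoderm, 1 was higher and 10 did not pass, with log2 sums of 10.82 to 11.83 at day 2 and 10.82 to 11.35 at day 4. Of the 7 arrays, Ttr, Cubn and Hnf4a were above the background level on day 2 replicate 3 only, with day 2 values of 2.37, 2.25, 6.70 and 2.23 for Ttr. Lama1, a laminin that neural epithelium also makes, gave 3.93, 3.48, 5.74 and 4.81 and then 8.87, 8.30 and 9.40 (log2 fold change 4.37, standard error 0.46, adjusted p = 2.8e-05) and was the gene called, but not on the 7 arrays alone. Of 14 genes of heart, blood and endothelium, only Myh6 was called, as lower, beside 7.1% of all genes (5.89, 5.16, 5.90 and 6.78 at day 2 and 2.26, 2.37 and 2.32 at day 4). The log2 sums of this list were 6.85 to 9.08 and 6.28 to 9.75. Actc1 was at 2.42, 2.42, 7.85 and 8.24 at day 2, high on replicates 3 and 4. The embryonic globins Hba-x and Hbb-bh1 were at 2.24, 2.74 and 8.93 and 2.23, 2.63 and 8.06 at day 4, high on replicate 3 alone. Tnnt2, Nkx2-5, Myl7, Gata1 and Cdh5 were under the background level on all 7 arrays. Of 13 genes of the stress response, 3 were lower (log2 sums of 14.13 to 14.80 and 14.46 to 14.66). Hmox1 fell from 10.08, 9.93, 10.85 and 10.15 at day 2 to 7.51, 8.64 and 8.54 at day 4 (log2 fold change -2.02, standard error 0.45, adjusted p = 0.0079) with an adjusted p of 0.046 without replicate 1 of day 4, and Trib3 and Ccng1 were called on dimmer probe sets. With day 2 replicates 1 and 2 alone as controls, and on the 7 arrays alone, none of the 13 was lower, and leaving out any single array left 1 or 2. The part of these other cells in the differences above was not tested.

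**Figure D4:**
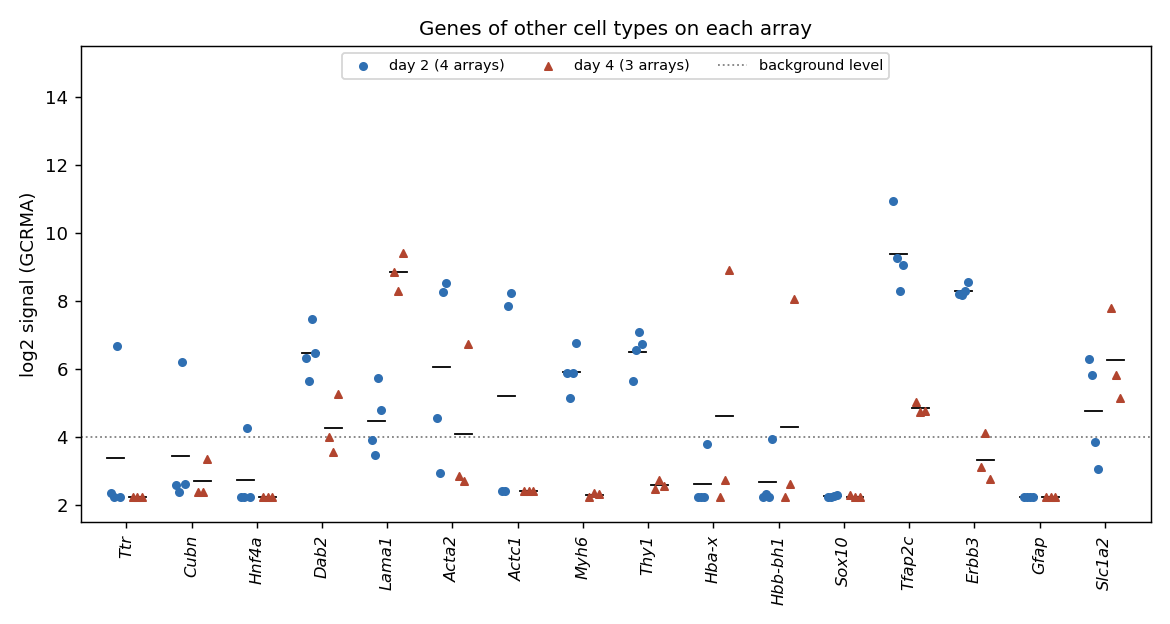
Log2 signal of 16 genes of other cell types on each array, with day 2 as blue circles (4 arrays), day 4 as red triangles (3 arrays), group means as short lines and a dotted line at the background level of 4. Ttr stands above the background level on 1 day 2 array, Actc1 on 2 day 2 arrays and Hba-x on 1 day 4 array.

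A net difference over 2 days hides genes that moved in between. Such genes, named here after their values had been seen, were followed on the arrays of the 8 h RA group (2 arrays) and of day 3 (3 arrays), which are in neither group of the comparison. Hoxb1 was at 2.73, 2.77, 2.94 and 2.80 at day 2, at 10.02 and 10.74 after 8 h of RA, at 5.04, 5.45 and 7.51 at day 3 and at 2.77, 3.69 and 5.27 at day 4. Its net difference did not pass (log2 fold change 1.10, standard error 0.58, adjusted p = 0.3), with only replicate 3 of day 4 above the background level. Cdx1, a caudal factor, was at 7.67 and 7.69 after 8 h of RA and under the background level on every array of day 2, day 3 and day 4. Aldh1a2, which makes RA, and the Wnt antagonist Sfrp5 were above the background level at day 3 alone, with 6.60, 6.87 and 5.98 and 9.07, 8.50 and 7.37. Their day 3 levels were higher than at day 2 (limma adjusted p = 4.4e-04 and 1.8e-07) and higher than at day 4 (adjusted p = 0.0017 and 8.6e-07). Dbx1, of the intermediate neural tube, was at 5.15, 5.62 and 8.79 at day 3 and at 2.23, 2.24 and 4.61 at day 4.

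Other genes went down and came back. Nr0b1, a nuclear receptor of pluripotent cells, was at 5.80 to 6.51 at day 2, at 2.23, 2.41 and 2.40 at day 3 and at 5.45, 6.96 and 6.55 at day 4, with steps of -3.82 (adjusted p = 3.3e-06) and 3.97 (adjusted p = 2.2e-05). Tubb3 fell to 4.12, 4.60 and 5.25 at day 3, a step of -3.42 (adjusted p = 0.0012), and rose by 4.88 from there to day 4 (adjusted p = 5.8e-04). Nefl and Ina showed the same order, with day 3 at 7.75 to 8.12 and 8.53 to 8.96, below every array of day 2 and day 4. Hes6, a partner of proneural factors, was at 10.49 to 10.63 at day 2, 8.72 to 9.07 at day 3 and 10.57 to 10.71 at day 4, and Olig1 at 7.34 to 7.73, 5.10 to 5.46 and 9.15 to 9.54. For these genes the comparison of day 4 with day 2 alone gave net log2 fold changes of 0.05 to 1.75, none of which passed, although the levels at day 3 lay outside both groups.

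**Figure D5:**
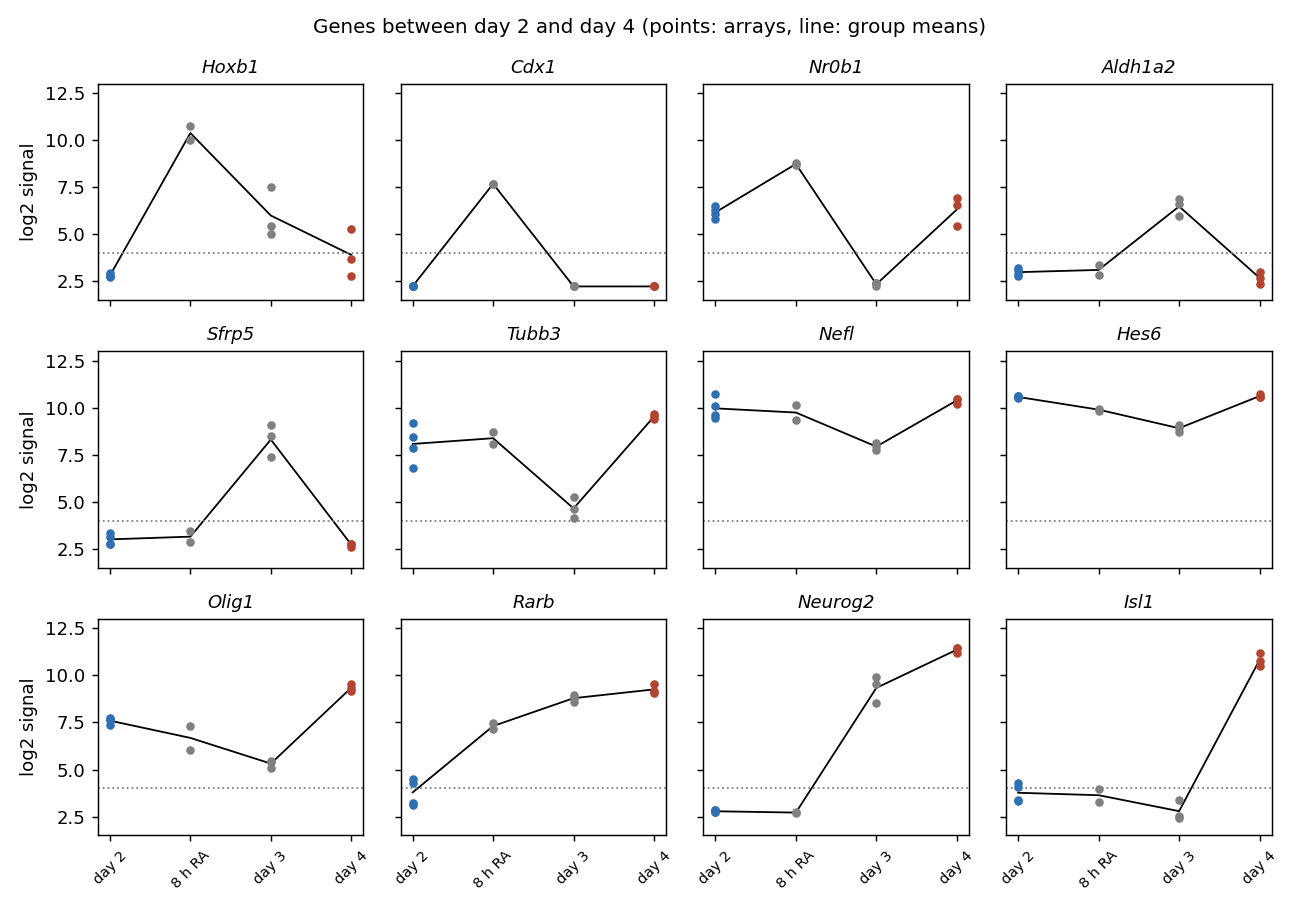
Log2 signal of 12 genes on each array at day 2 (blue), after 8 h of RA (gray, 2 arrays), at day 3 (gray, 3 arrays) and at day 4 (red), with lines through the group means and the background level of 4 dotted. Hoxb1, Cdx1, Aldh1a2 and Sfrp5 peak in between, Tubb3, Nefl, Hes6 and Olig1 dip at day 3, and Rarb, Neurog2 and Isl1 end high.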

How the data were processed

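The deposited table holds 1 log2 value per probe set and array of the Affymetrix mouse genome array, which the authors made from amplified total RNA with GCRMA, a background correction and quantile normalization over all 18 arrays. Per the submitters' processing notes GCRMA and limma were used, with no version stated in the sources used here. Control probe sets were left out (64 of 45101), and the other 45037 were fitted in limma 3.58.1 (R 4.3.3) with a mean for each of 6 groups over all 18 arrays, the day 4 minus day 2 contrast and Benjamini-Hochberg adjustment over all probe sets. The platform annotation gave 34945 probe sets 1 gene symbol, 932 several and 9160 none, for 18193 genes. Between 55.2% and 56.9% of probe sets per array lay under the background level of 4, which was set here. The number of arrays limits the precision.

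Named genes are the 15 largest rises and 15 largest falls with groups that did not overlap, up to 6 called genes per list ranked by change, and genes that define a cell type or pathway. Several genes beyond this rule were named after their values were seen, such as Cdh2, Zeb1, Pou3f1, Hey1, Sema6a, Cxcl12, Pbx2 and members that were not called. The 35 lists hold 556 genes, and entries without a matching symbol (36) were not analysed here. The members of the comparison and the lists were chosen with earlier results of these data known. Alternatives were a fit on the 7 arrays, a replicate block, other moderation, array weights, filters on dim probe sets, other normalization, other rules for several probe sets, the day 2 pairs alone and each array left out. Replicates are called biological by the authors, and nothing in the labels says that they came from separate cultures, so the p-values may measure technical spread. Figures were drawn with matplotlib 3.10.9 (Python 3.11.15).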

Additional observations from a re-analysis of the deposited data

Results flagged for a closer look

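Of 203 genes whose 4 day 2 arrays were examined for a single array far from the other 3, 17 (8.37%) held one. The usual rate of about 1 in 20 cannot be set beside this share. For several genes, such as Hoxc5 and Shh, the other 3 arrays had equal values under the background level, where any small deviation is flagged. For 11 of these 17 every day 2 array was under the background level of 4. Replicate 3 of day 2 stood apart for 6 genes. Ttr was at 6.70 there against 2.23 to 2.37 on the other arrays, Unc5a at 5.47 against 4.76 to 4.86, Hoxb4 at 3.80 against 2.33 to 2.51 and Hoxb2 at 3.54 against 2.55, whereas Ebf3 was low at 2.48 against 2.84 and Shh at 2.39 against 2.45. Replicate 4 stood apart for 6 genes as well. Meis3 was at 5.35 there against 3.88 to 4.10, Pou3f3 at 4.33 against 3.03 to 3.17, the embryonic globins Hba-x and Hbb-bh1 at 3.81 and 3.95 against 2.23 and 2.23 to 2.33, Rara at 3.83 against 3.44, and Trh was low at 12 against 12.42 to 12.47. Replicate 2 was high for Lhx4, at 4.11 against 2.82, and differed by little in absolute terms for Cdx1 (2.28), Hoxc5 (2.25) and Hoxc9 (2.26), where the other arrays were at 2.23 to 2.24 for Cdx1 and at 2.23 for the other two. Replicate 1 was low for Neurog1, at 2.24 against 2.25.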

How the results depend on the processing

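Against 2395 called genes (1105 higher, 1292 lower), other moderation, array weights, normalization, filters, probe set rules and an adjusted p under 0.05 gave 1872 to 3337. The fit on the 7 arrays alone called 1067 (509 higher, 558 lower), with 492 and 549 of these among the genes called above. Leaving out an array gave 1773 (without day 4 replicate 2) to 2469 genes (without day 2 replicate 2), with 805 to 1036 higher and 946 to 1456 lower. Against day 2 replicates 1 and 2 alone 757 were lower. With the replicate block, limma called 2472 genes on all 18 arrays, 1564 (834 higher, 730 lower) on the arrays of day 2, day 3 and day 4, and 0 on the 7 arrays, with 0 higher and 0 lower, where 2 residual degrees of freedom remained and 1642 genes were higher and 1662 lower at an unadjusted p under 0.05 and 2-fold. Same-numbered arrays of day 2 and day 4 deviated together with correlations of 0.57, 0.01 and 0.52. The labels do not say whether a number marks a shared culture, and the main fit did not pair the arrays. Day 4 replicate 1 also correlated with day 2 replicate 2 (0.48) and day 4 replicate 3 with day 2 replicate 4 (0.46), and day 4 replicate 2 with none above 0.08. Of 141 named genes called on the brightest probe set, 15 lost the call without 1 array or more. These were Hmox1 (any of 7 arrays), Cdx2, Fgfr4, Gas1 and Mnx1 (6 each), Gbx2 (5), Cdh6, Hoxd8, Ptch1 and Zeb2 (4 each), Ccne1 and Nrp1 (3 each), Lhx1 (2), Smarcd3 and Wnt3 (1 each). On the 7 arrays alone 30 lost it, with day 2 replicates 1 and 2 alone 21, which include Dll3, Ets1, Lef1, Ntn1, Sema6a, Sfrp1, Shh and Ss18l1 beside genes already listed, and with replicates 3 and 4 alone 15, which include Hmga2. With the replicate block, 3 lost it on all 18 arrays, 27 on the arrays of day 2, day 3 and day 4, and all 141 on the 7 arrays. Among those 27 were Cyp26b1, Dll3, Ets1, Ldhb, Mixl1 and Sema6a. Raising values to the background level ended 9 calls, those of Myh6 and Shh among them, and averaging probe sets 7, with Rxra and Sox1 among them. None of the 203 genes changed sign with a call. Values under the background level have no reliable order.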
